A study of Mus musculus with 4 samples.

Results

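The INK4 and KIP cell cycle inhibitors were followed through embryonic mouse skin: Cdkn2a, Cdkn2b, Cdkn2c and Cdkn2d of the INK4 family and Cdkn1b of the KIP family. They were chosen by symbol and make up 5 of the 56980 genes in the files. The 4 INK4 proteins bind CDK4 and CDK6 and keep them from their D cyclin partners, so that the retinoblastoma proteins stay active and E2F factors stay bound. Cdkn1b encodes p27, which binds cyclin E-CDK2 and cyclin A-CDK2 and is destroyed by the SCF-Skp2 ubiquitin ligase as cells enter S phase. In skin these genes are best known as brakes on keratinocyte growth, and Cdkn2a and Cdkn2b, which share 1 locus, as genes held silent by Polycomb proteins and switched on in senescence.

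Single-cell RNA-seq was collected from sorted Epcam+ α6+ cells of mouse dorsal skin at the embryonic stage the labels give as E16.5, in 2 Ctrl and 2 TKO libraries. Ctrl embryos carried floxed alleles of Suv39h1 and Setdb1 and the constitutive Suv39h2-/- deletion, and lacked K14CreERT2. TKO (triple knockout) embryos carried those alleles together with K14CreERT2, in which the keratin 14 promoter of basal keratinocytes drives a Cre that acts once tamoxifen is given, and both groups were exposed to tamoxifen. All 4 libraries therefore lack intact Suv39h2, and TKO adds the loss of Suv39h1 and Setdb1, the other H3K9 methyltransferases targeted, which the study describes as mosaic. Each library came from 1 embryo, so every p-value below measures the spread between 2 embryos a group.

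Of 19789 barcodes, 9176 keratinocytes were kept and placed in 4 classes: 1793 resting basal, 3052 cycling basal, 2107 suprabasal and 2105 hair follicle cells. The remainder were 82 cells of a Merkel-like cluster and 37 basal cells with too few UMIs to place. Setdb1 was at 54.2 to 76.7 counts per 1000000 UMIs (CPM) in the Ctrl classes and at 36.4 to 46.4 CPM in the TKO classes, and both TKO libraries lay below both Ctrl libraries in each class. Both TKO libraries were also below both Ctrl libraries for Suv39h1 in 3 classes (15.6 to 30.7 CPM in TKO, against 18.7 to 37.8 CPM in Ctrl), but not in suprabasal cells (11.8 and 13.0 CPM in Ctrl, 14.6 and 10.7 CPM in TKO). Suv39h2 was still counted at 8.24 to 26.0 CPM in all libraries, so its counts do not report its deletion. Suprabasal markers summed to 49538 and 43714 CPM in suprabasal cells of Ctrl, to 22487 and 37220 CPM in those of TKO and to 428 to 1284 CPM in basal cells. Hair follicle markers summed to 3883 to 4643 CPM in hair follicle cells. One basal cluster of 644 cells (with Lef1, a hair follicle marker, among its leading genes) and one suprabasal cluster of 466 cells (with Krt79 and Krt15) did not lead with genes of their own class, so results in those classes were repeated without them. Stress genes (Cxcl10, Atf3, Zfp36) led basal clusters of 923 and 422 cells. Any 2 libraries shared 2 to 12 barcodes.

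A UMI is a molecular identifier that marks 1 captured RNA molecule. Summed over the 16 class-by-library sums, Cdkn1b had 9807 UMIs, Cdkn2d 6130, Cdkn2c 1209, Cdkn2b 1116 and Cdkn2a 11. Changes were tested on these sums across all expressed genes with edgeR's quasi-likelihood test, and a gene was called when its p, adjusted by the Benjamini-Hochberg method over all genes tested, was under 0.05. Genes under edgeR's expression filter in a class were not tested there, which was so for Cdkn2a in every class, for Cdkn2b in every class but the suprabasal one and for Cdkn2c in resting basal cells.

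Positions are those of GENCODE on GRCm39, the build of the files. Cdkn2a (chr4:89192708-89212890, minus strand) and Cdkn2b (chr4:89223204-89229276, minus) are neighbours. Counts per gene cannot tell the p16Ink4a and p19Arf transcripts of Cdkn2a apart. Cdkn2c (chr4:109517957-109524386, minus), which encodes p18, lies far along the same chromosome. Cdkn2d (chr9:21199700-21202727, minus), which encodes p19Ink4d, and Cdkn1b (chr6:134897364-134902476, plus) are on other chromosomes. All members but Cdkn2a are overlapped by a gene on the opposite strand.

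Cdkn2c and Cdkn2d were the members called lowered in cycling basal and hair follicle cells of TKO, and their promoters are shown because both hold the same E2F-like letters. The windows run from 250 bases before to 50 after the RefSeq start on GRCm38.p6, a different build from the files: chr4:109666707-109667006 (minus) for Cdkn2c, of whose starts this is one of 2, and chr9:21291160-21291459 (minus) for Cdkn2d. Capitals mark GGCGGGA, a form of the E2F motif, and CCAAT, a box that NF-Y binds, which reads ATTGG on the opposite strand.
Cdkn2c: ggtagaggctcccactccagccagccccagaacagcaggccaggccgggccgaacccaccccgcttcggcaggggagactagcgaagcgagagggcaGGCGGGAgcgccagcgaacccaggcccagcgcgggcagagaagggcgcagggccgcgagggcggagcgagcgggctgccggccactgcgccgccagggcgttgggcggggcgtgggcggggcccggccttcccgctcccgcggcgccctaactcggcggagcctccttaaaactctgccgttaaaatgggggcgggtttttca
Cdkn2d: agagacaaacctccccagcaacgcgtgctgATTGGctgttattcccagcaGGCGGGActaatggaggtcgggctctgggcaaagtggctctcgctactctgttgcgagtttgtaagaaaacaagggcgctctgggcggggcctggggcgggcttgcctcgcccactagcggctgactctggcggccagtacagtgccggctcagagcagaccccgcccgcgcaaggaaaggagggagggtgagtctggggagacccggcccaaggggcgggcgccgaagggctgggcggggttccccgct
Both strands of 32851 RefSeq promoters were searched for these letters. GGCGGGA was in 11.3% of them and in no other promoter of the members. The 8-letter E2F forms TTTCCCGC, TTTCGCGC, TTTGCCGC and TTTGGCGC, which can overlap GGCGGGA, were in 2.26% of promoters and among the members in 1 promoter of Cdkn2a. TTTGAA, the core of the CHR element of G2/M genes, was in 17.9% of promoters and among the members in that of Cdkn2b. CCAAT was in 37.4% of promoters, with 3 matches in that of Cdkn1b and 1 each in a Cdkn2a promoter and the other Cdkn2c promoter. These matches describe letters in a window and not sites in use.

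Within basal keratinocytes most Cdkn2c UMIs were in cycling cells, where the gene was lower in TKO. A cell was called cycling when, of 5000 UMIs drawn from it, at least 10 fell on the S phase list or at least 5 on the G2/M list, each of 20 genes. In resting basal cells Cdkn2c had 4 and 10 UMIs from Ctrl embryos and 1 and 1 from TKO embryos, or 0.37, 0.82, 0.18 and 0.17 CPM. In cycling basal cells it stood at 13.8 and 16 CPM in Ctrl (271 and 282 UMIs) and at 3.64 and 4.69 CPM in TKO (95 and 99 UMIs). Both TKO libraries lay below both Ctrl libraries, as was the case, by any margin, for 30.4% of all genes tested in that class.

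Cdkn2c in cycling basal cells averaged 14.9 ± 1.55 CPM over the Ctrl libraries and 4.17 ± 0.745 CPM over the TKO libraries (SD, n = 2). The log2 change was -1.82 (SE 0.216; adjusted p = 0.0044 by edgeR). Over the 14 alternatives to the processing it ran from -2.04 to -1.62 and was called under each. Without the basal cluster that did not lead with basal genes it was -1.85 (edgeR adjusted p = 0.0050), in a set where 12.4% of genes were called. In resting basal cells, where 14 UMIs faced 2, the ratio of TKO to Ctrl was 0.288 (exact 95% interval 0.0317 to 1.25, covering counting error only). The difference between its changes in cycling and in resting basal cells was tested and was not called, where 7.34% of genes were. It rests on few resting UMIs, so the fall is not shown to differ between these cells.

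The same drop was seen as a share of cells. With each cell thinned to 5000 UMIs, 6.25% and 6.96% of cycling basal cells held a Cdkn2c UMI in Ctrl, against 1.74% and 1.52% in TKO. Without thinning the shares were 23.0% and 23.2% in Ctrl and 11.5% and 12.2% in TKO, with median depths of 22889 and 20444 UMIs in Ctrl, against 32726 and 30408 in TKO. Resting basal cells, thinned alike, held 0.335% over all libraries.

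**Figure D1:**
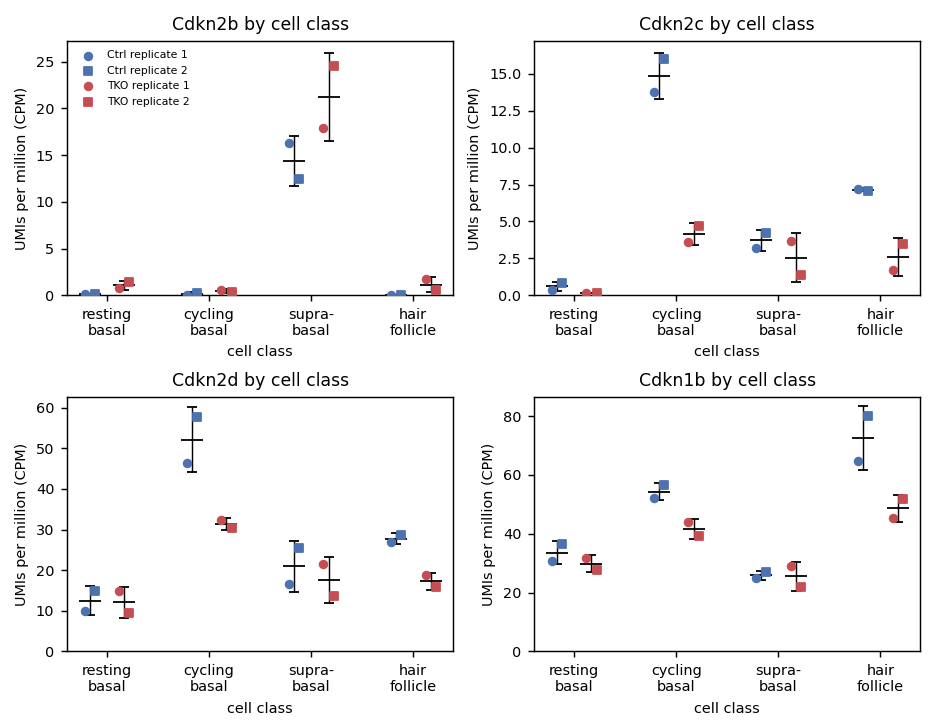
Levels (CPM) of Cdkn2b, Cdkn2c, Cdkn2d and Cdkn1b in each library by cell class, with the mean and SD of each group (n = 2) as bars. In cycling basal cells the Ctrl libraries stood at 13.8 and 16 CPM for Cdkn2c and the TKO libraries at 3.64 and 4.69 CPM, while Cdkn2b was nearly absent outside suprabasal cells.

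Cdkn2d was present in resting basal cells, where the genotypes overlapped at 10.0 and 15 CPM in Ctrl and 14.8 and 9.45 CPM in TKO. The log2 change there was -0.09 (SE 0.289; adjusted p = 0.884 by edgeR), and its sign turned under 3 alternatives. The stress-led basal cluster of 923 cells held 185 and 476 cells of Ctrl and 192 and 70 of TKO. Cdkn2d stood there at 14.7 and 20.6 CPM in Ctrl and at 26.7 and 28.5 CPM in TKO. In the stress-led cluster of 422 cells it stood at 84.7 and 93.1 CPM in Ctrl and at 60.6 and 52.4 CPM in TKO. The part of these clusters in the resting values was not tested. In cycling basal cells Cdkn2d stood at 46.4 and 57.7 CPM in Ctrl and at 32.5 and 30.3 CPM in TKO, with no overlap. It fell by 0.71 on the log2 scale (SE 0.139; adjusted p = 0.0215 by edgeR). The call was lost without Ctrl replicate 2 (log2 change -0.54; edgeR adjusted p = 0.109) and with every cell at 5000 UMIs (-0.53; edgeR adjusted p = 0.105). The difference between the changes in cycling and in resting basal cells was -0.64 (edgeR adjusted p = 0.0630), where 7.34% of genes passed. With 1 library left out it ran from -0.88 to -0.30, and its outcome was the same under 7 of 12 alternatives.

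Cdkn1b was counted in every class, and the p27 message did not pass the test in resting or in cycling basal cells as whole classes. Resting basal cells held 30.8 and 36.4 CPM in Ctrl and 31.8 and 27.8 CPM in TKO, which overlap (log2 change -0.22; edgeR adjusted p = 0.474). Cycling basal cells held 52.3 and 56.4 CPM in Ctrl and 44.1 and 39.1 CPM in TKO. These do not overlap, but the log2 change of -0.37 (95% interval -0.63 to -0.10) had an edgeR adjusted p of 0.0766.

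So in cycling basal cells 2 of the 3 members tested were lowered, where 4.82% of all 16295 genes tested were lowered and 13.1% called in either direction. The members' median log2 change was -0.71 and that of all genes -0.01. In resting basal cells none of 2 tested was called, against 9.22% of all genes, and their median was -0.16. Summed over all keratinocytes, 1 of the 4 members tested was called, Cdkn2c, with a log2 change of -1.31 and an edgeR adjusted p of 0.0241, against 7.09% of genes. That call was lost without Ctrl replicate 1 and without Ctrl replicate 2. An immune marker list of 7 genes, 1 of them at 0 in all 4 libraries, summed to 2.54 and 3.46 CPM in cycling basal cells of Ctrl and to 5.44 and 5.69 CPM in those of TKO. A fibroblast list of 7 genes, none at 0, summed to 1299 and 1446 CPM in Ctrl and to 1000 and 782 CPM in TKO. Suprabasal markers (999 and 843 CPM in Ctrl, 428 and 702 CPM in TKO) and Merkel markers (29.1 and 23.9 CPM in Ctrl, 18.8 and 13.4 CPM in TKO) were lower too. Cdkn2c is also made by such cells: fibroblast-like cells held 19.5 and 14.3 CPM in Ctrl and 47.0 and 27.5 CPM in TKO, and immune-like cells 51.0 and 45.1 CPM in Ctrl and 69.2 and 54.4 CPM in TKO. In both kinds of cell Cdkn2c was higher in each TKO library than in each Ctrl library, the opposite order to that in cycling basal cells. The part of these lists and of admixed RNA in the basal result was not tested.

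**Figure D2:**
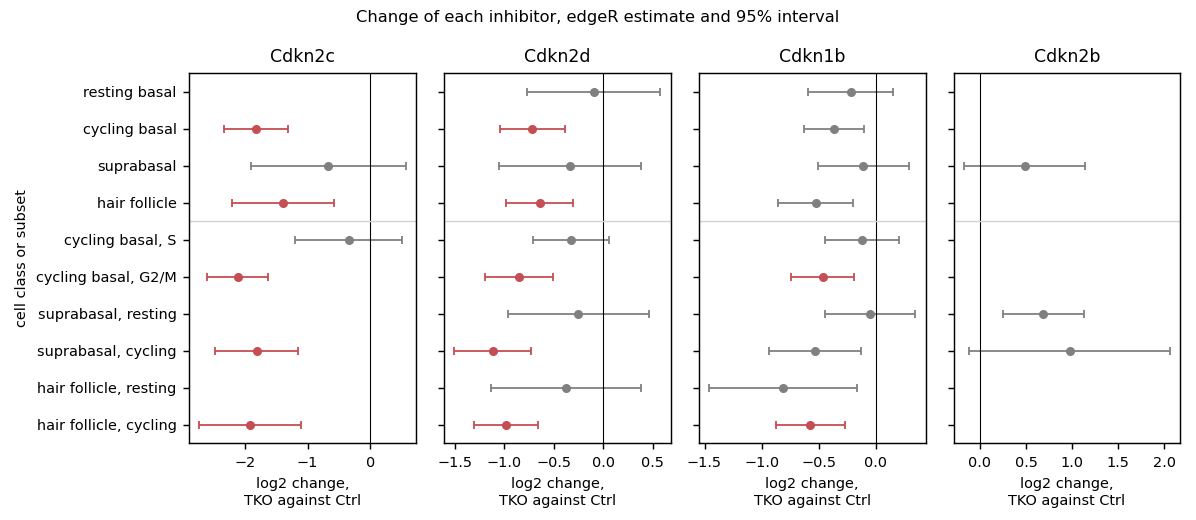
Log2 change (TKO against Ctrl) of each inhibitor in each class and subset, with its 95% interval from edgeR; red marks an adjusted p under 0.05 and a missing point a gene that was not tested. Cdkn2c and Cdkn2d were lowered in the cycling subset of each compartment, with log2 changes of -1.81 to -2.12 for Cdkn2c in the G2/M basal, cycling suprabasal and cycling hair follicle subsets.

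Because cycling cells are a mixture of phases, cycling basal cells were split further. The G2/M subset had at least 10 UMIs of 5000 on the G2/M list, and the S phase subset had fewer than that and at least 10 on the S phase list. The subsets were set after the cells had been seen. In the S phase subset Cdkn2c stood at 3.11 and 3.30 CPM in Ctrl and at 2.40 and 2.71 CPM in TKO, which is a log2 change of -0.34 (95% interval -1.19 to 0.50; edgeR adjusted p = 0.587). In the G2/M subset it stood at 21.5 and 24.7 CPM in Ctrl and at 4.59 and 5.94 CPM in TKO. Cdkn2c was thus higher in the G2/M than in the S phase subset of Ctrl, and in G2/M it fell by 2.12 on the log2 scale (SE 0.210; adjusted p = 0.0019 by edgeR). The change in G2/M minus the change in S phase was -1.79 (SE 0.331; adjusted p = 0.0114 by edgeR), a difference called for 1.98% of the 14881 genes tested.

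Cdkn2d followed the same order of phases. It stood at 18.7 and 18.7 CPM in the S phase subset of Ctrl and at 15.6 and 14.5 CPM in that of TKO (log2 change -0.33; edgeR adjusted p = 0.239). In G2/M it stood at 67.0 and 84.4 CPM in Ctrl and at 42.9 and 39.9 CPM in TKO, and fell by 0.85 (SE 0.146; adjusted p = 0.0124 by edgeR). Its difference between the phases, -0.52, had an edgeR adjusted p of 0.129. Cdkn1b was at 68.0 and 72.7 CPM in G2/M cells of Ctrl and at 53.3 and 47.0 CPM in those of TKO, and fell by 0.47 (SE 0.119; adjusted p = 0.0433 by edgeR). In S phase its change was -0.12 (edgeR adjusted p = 0.615), and the difference between phases was -0.35 (edgeR adjusted p = 0.198).

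In the G2/M subset all 3 members tested were lowered, against 4.65% of 14803 genes, and their median log2 change was -0.85 against -0.02 for all genes. In the S phase subset none of 3 was called, against 12.4% of genes. The G2/M list itself summed to 25 and 24.8 UMIs per 5000 in G2/M cells of Ctrl and to 22.1 and 22.0 in those of TKO. G2/M cells were 56.1% and 54.7% of cycling basal cells in Ctrl and 57.4% and 56.5% in TKO. In S phase cells that list summed to 2.72 and 3.04 UMIs per 5000 in Ctrl and to 3.81 and 3.58 in TKO, and Ccnb2 stood there at 6.23 and 10.4 CPM in Ctrl and at 61.7 and 53.9 CPM in TKO. The genotypes thus differed in mitotic transcripts within the S phase subset too, and the part of this in the contrast of phases was not tested.

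The clusters, which were built without the members, divided the cycling cells in another way. In the basal cluster led by Ube2c and Cenpf, genes of mitosis, Cdkn2c stood at 26.2 and 35.9 CPM in Ctrl and at 4.38 and 5.92 CPM in TKO. Cdkn2d stood there at 85.2 and 104.9 CPM in Ctrl and at 39.0 and 38.2 CPM in TKO. In the cluster led by Pclaf and Clspn, genes of DNA replication, Cdkn2c was at 17.5 and 15 CPM in Ctrl and at 5.75 and 6.78 CPM in TKO, so its Ctrl levels lay above those of the S phase subset. In the cluster led by Cenpa, Ccnb2 and Cdc20, also genes of mitosis, Cdkn2c was at 5.03 and 3.02 CPM in Ctrl and at 0.421 and 1.10 CPM in TKO (10 and 5 UMIs, against 1 and 2). No cluster value was tested.

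**Figure D3:**
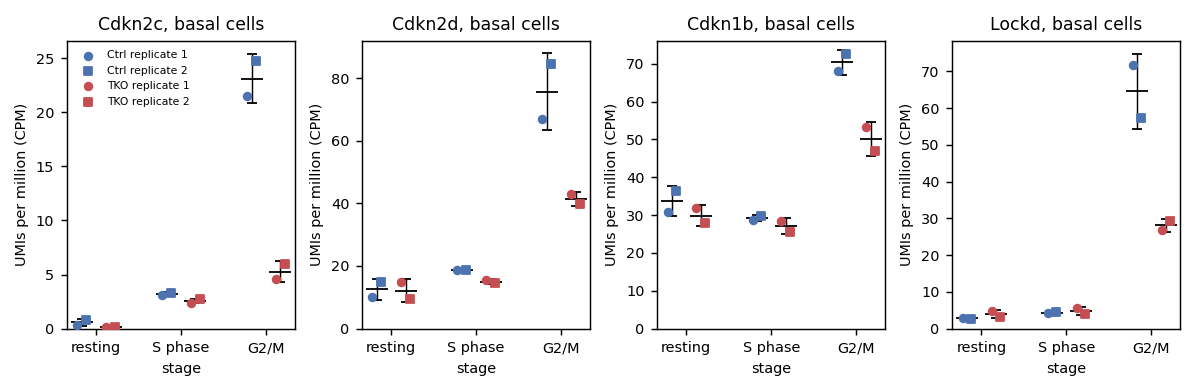
Levels (CPM) of Cdkn2c, Cdkn2d, Cdkn1b and the lncRNA Lockd in resting, S phase and G2/M basal cells of each library, with group mean and SD (n = 2). Cdkn2c rose in Ctrl from 0.37 and 0.82 CPM in resting cells to 21.5 and 24.7 CPM in G2/M cells, against 4.59 and 5.94 CPM in G2/M cells of TKO.

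A larger share of basal cells was called cycling in TKO. These calls rest on UMIs of the S phase and G2/M lists alone, no direct measure of proliferation was used here, and the shares are not read as a rate of proliferation. The share called cycling was 59.6% and 52.1% in Ctrl and 77.0% and 72.3% in TKO. The means were 55.9% ± 5.34 and 74.6% ± 3.33 (SD, n = 2), a difference of 18.8 percentage points. The exact binomial intervals of both TKO libraries lay above those of both Ctrl libraries, but they cover counting error only and not the spread between embryos. With 2 libraries a group the exact two-sided permutation test cannot go below the p of 0.3333 it gave. Of 4882 basal cells, 342 lay just inside the threshold and 389 just outside it (within 2 UMIs), and 37 had fewer than 5000 UMIs. Whether these inhibitors bear on the cycling share was not tested.

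**Figure D4:**
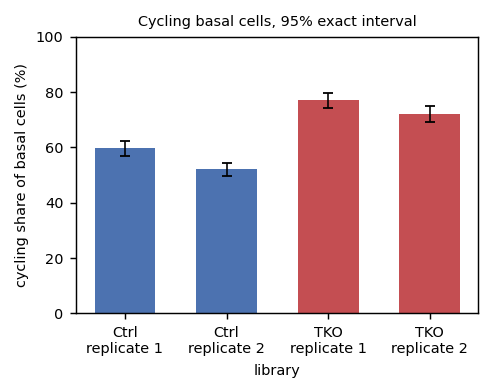
Percent of basal cells called cycling in each library, with exact 95% binomial intervals that cover counting error only. Ctrl stood at 59.6% and 52.1%, and TKO at 77.0% and 72.3%.

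In suprabasal cells, the differentiating layers above the basal one, the class as a whole gave no called member, against 0.944% of all genes. Cdkn2c stood at 3.2 and 4.24 CPM in Ctrl and at 3.71 and 1.40 CPM in TKO, which overlap (log2 change -0.67; edgeR adjusted p = 0.554), and the change ran from -1.43 with TKO replicate 1 left out to -0.12 with TKO replicate 2 left out. Cdkn2d (16.6 and 25.4 CPM in Ctrl, 21.6 and 13.7 CPM in TKO) and Cdkn1b (24.8 and 26.9 CPM in Ctrl, 29.0 and 22.0 CPM in TKO) overlapped too. The share of cells called cycling in this class was higher in the TKO libraries, 37.9% and 21.7% against 14.6% and 18.3% in Ctrl. Suprabasal markers were lower in both TKO libraries of this class, while the immune list was at 1.73 and 1.88 CPM in Ctrl and 4.05 and 4.33 CPM in TKO, and the melanocyte list at 5.40 and 6.28 CPM in Ctrl and 17.0 and 10.0 CPM in TKO. Their part in the suprabasal values of the members, Cdkn2b included, was not tested.

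Splitting the class by cycling state separated the members. In cycling suprabasal cells (93 to 123 a library) Cdkn2c stood at 20.8 and 22.1 CPM in Ctrl and at 7.30 and 4.83 CPM in TKO. It fell by 1.81 (SE 0.294; adjusted p = 0.0155 by edgeR). Cdkn2d, at 61.6 and 76.5 CPM in Ctrl and 33.2 and 30.7 CPM in TKO, fell by 1.11 (SE 0.172; adjusted p = 0.0129 by edgeR). These 2 of the 4 members tested were lowered where 1.75% of 11416 genes were. In resting suprabasal cells Cdkn2c had 2 and 0 UMIs in Ctrl, against 2 and 2 in TKO. Cdkn2d stood there at 8.64 and 13.3 CPM in Ctrl and at 11.0 and 8.14 CPM in TKO, which overlap.

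Hair follicle cells repeated the order seen in cycling basal cells. Cdkn2c stood at 7.22 and 7.09 CPM in Ctrl and at 1.71 and 3.5 CPM in TKO and fell by 1.39 (SE 0.346; adjusted p = 0.0408 by edgeR). Cdkn2d stood at 26.9 and 28.7 CPM in Ctrl and at 18.8 and 15.8 CPM in TKO and fell by 0.64 (SE 0.144; adjusted p = 0.0297 by edgeR). Cdkn1b stood at 64.8 and 80.2 CPM in Ctrl and at 45.5 and 51.8 CPM in TKO, which is a log2 change of -0.53 (SE 0.141) with an edgeR adjusted p of 0.0506, and it was called under 5 of 13 alternatives. The 3 members were lower in both TKO libraries than in both Ctrl libraries, as were 34.1% of all genes. Of the 3 tested 2 were called lowered, against 5.88% of genes. The members' median was -0.64 and that of all genes -0.01.

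These calls were less firm than those in cycling basal cells. The Cdkn2c call was lost without Ctrl replicate 1 (edgeR adjusted p = 0.133), without Ctrl replicate 2 (0.119), without alignment of the libraries (0.0612) and at 5000 UMIs a cell (0.131). With TKO replicate 1 left out its log2 change was -0.97, and with TKO replicate 2 left out it was -2.02. The Cdkn2d call was lost without Ctrl replicate 1 (0.102), Ctrl replicate 2 (0.142) or TKO replicate 2 (0.0555), under DESeq2 (0.0513) and at 5000 UMIs a cell (0.279). An erythroid marker list summed to 306 CPM in hair follicle cells of TKO replicate 2 and to 14.1 to 20.7 CPM in the others, and the immune list to 11.6 and 14.5 CPM in Ctrl and 25.3 and 31.8 CPM in TKO. Other lists were lower in TKO, as the members were: melanocyte markers at 25.7 and 37.7 CPM in Ctrl and 10.1 and 13.0 CPM in TKO, Merkel markers at 40.9 and 83.3 CPM in Ctrl and 28.3 and 19.8 CPM in TKO, and suprabasal markers at 512 and 423 CPM in Ctrl and 156 and 244 CPM in TKO. The part of these lists in the results was not tested.

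A larger share of hair follicle cells was also called cycling in TKO, 67.8% and 59.2% against 50.4% and 39.2% in Ctrl. Within cycling hair follicle cells Cdkn2c stood at 11.9 and 14.3 CPM in Ctrl and at 2.14 and 4.50 CPM in TKO, and fell by 1.91 (SE 0.346; adjusted p = 0.0162 by edgeR). Cdkn2d fell there by 0.98 (edgeR adjusted p = 0.0073) and Cdkn1b by 0.58 (edgeR adjusted p = 0.0320). All 3 tested were lowered, against 5.03% of 14557 genes. In resting hair follicle cells Cdkn2c had 0 and 7 UMIs in Ctrl, against 1 and 5 in TKO. The cluster led by Plcl1 and Lhx2 held Cdkn2c at 13.7 and 11.2 CPM in Ctrl and at 2.35 and 2.84 CPM in TKO. In the cluster led by Dkk4 and Lsamp it was at 13.4 and 14.6 CPM in Ctrl and at 2.45 and 8.25 CPM in TKO, a wider spread between the TKO embryos. Of 577 and 763 hair follicle cells in Ctrl this cluster held 50 and 61, and of 325 and 440 in TKO 88 and 80. The cluster led by Zfpm2 and Pthlh held 94 and 130 in Ctrl and 36 and 33 in TKO. The part of this make-up in the class values was not tested.

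Cdkn2b, which encodes p15 and is a classical target of TGF-beta signalling, was a gene of differentiated cells. It had 377 and 159 UMIs in suprabasal cells of Ctrl and 159 and 352 in those of TKO, or 16.3, 12.5, 17.9 and 24.6 CPM. With cells thinned to 5000 UMIs, 7.77% of suprabasal cells held a Cdkn2b UMI against 0.167% of resting basal cells. Without thinning these shares were 29.8% and 0.558%, at median depths of 26562 and 17306 UMIs.

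Both TKO libraries lay above both Ctrl libraries for Cdkn2b in suprabasal cells, as did 31.0% of all genes. The log2 change was 0.48 (95% interval -0.17 to 1.14; edgeR adjusted p = 0.424). In resting suprabasal cells alone it stood at 17.8 and 14.9 CPM in Ctrl and at 26.0 and 28.5 CPM in TKO, which is a log2 change of 0.69 (95% interval 0.25 to 1.12; edgeR adjusted p = 0.130). It did not pass the test in any of these sets. In the whole class the change ran from 0.172 to 0.725 with 1 library left out. Without the suprabasal cluster that led with Krt79 and Krt15 the change was 0.33.

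Cdkn2b differed widely among the 6 suprabasal clusters. It was at 3.64 and 2.08 CPM in Ctrl and 6.7 and 10.1 CPM in TKO in the cluster led by Krt79 and Notch1. It was at 15.4 and 10.0 CPM in Ctrl and 18.3 and 25.3 CPM in TKO where Ly6d and Krt10 led, and at 26.2 and 26.9 CPM in Ctrl and 33.2 and 35.2 CPM in TKO where Ly6g6c and Krt1 led. In the last of these clusters the libraries of a group lay within 2 CPM of each other. The cycling suprabasal cluster, led by Ube2c and Top2a, held less, 6.62 and 2.72 CPM in Ctrl and 5.06 and 9.86 CPM in TKO. The 2 smallest clusters held few UMIs. Cdkn2b was at 21.8 and 16.3 CPM in Ctrl and 43.1 and 48.6 CPM in TKO in the 45 cells led by Sprr1b and Calm4 (16 UMIs in all), and at 1.60 and 0 CPM in Ctrl and 7.18 and 12.8 CPM in TKO in the 125 cells led by Abca12 (5 UMIs in all).

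**Figure D5:**
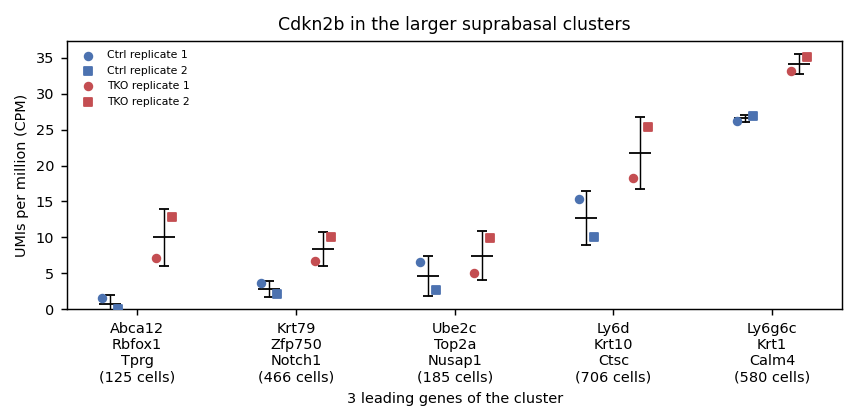
Levels (CPM) of Cdkn2b in the 5 suprabasal clusters of over 100 cells, by library, with group mean and SD (n = 2); the axis gives 3 leading genes of each cluster. Levels were 26.2 to 35.2 CPM in the Ly6g6c and Krt1 cluster and 2.08 to 10.1 CPM in the Krt79 and Notch1 cluster.

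Outside the suprabasal layers Cdkn2b was rare, and its few UMIs were mostly in TKO. Hair follicle cells held 0 and 0 UMIs in Ctrl, against 19 and 7 in TKO, spread over 12 cells. Against a floor of 3 UMIs over the Ctrl group (0.106 CPM), TKO was at least 10.3-fold higher, a bound that rests mostly on TKO replicate 1 and is 5.25-fold from TKO replicate 2 alone. The gene was under the expression filter there, and no p is given against a group at 0. Of the 26 UMIs, 14 were in the cluster led by Zfpm2 and Pthlh and 10 in that led by Dkk4 and Lsamp.

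In resting basal cells Cdkn2b had 1 and 2 UMIs in Ctrl, against 4 and 8 in TKO. The ratio of TKO to Ctrl was 8.06 (exact 95% interval 2.17 to 44.5), and UMIs of 1 cell, up to 3 here, are not independent. Cycling basal cells held 1 and 5 UMIs in Ctrl, against 15 and 7 in TKO, 7 of them in 1 cell. In both basal classes and in hair follicle cells the TKO libraries were above the Ctrl libraries, as were 31.3%, 28.4% and 26.3% of the genes tested there. Free RNA can give UMIs at such low shares, and whether the basal cells that held them express the gene was not tested.

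Cdkn2a was at the edge of detection. Over 9176 keratinocytes it had 1 and 0 UMIs in Ctrl, against 10 and 3 in TKO, from 8 cells. No resting basal cell of 1793 held one, which allows a share of cells with a UMI, not of cells that express the gene, of up to 0.167%. Hair follicle cells of TKO replicate 1 held 8 UMIs, 6 of them in 1 cell, and the other 3 libraries held 0 in that class. TKO was at least 3.18-fold above the Ctrl floor of 3 UMIs there, a value that rests on that library and chiefly on that cell. Of the 4 keratinocytes of TKO replicate 1 with Cdkn2a, 3 also held Cdkn2b, as did 1 of the 3 in TKO replicate 2 and 0 of 1 in Ctrl. No test was made on counts this low.

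Genes beside the members were read in the same way. The lncRNA Gm12606, 1068 bases beyond Cdkn2a, had 3 and 4 UMIs in suprabasal cells of Ctrl and 18 and 40 in those of TKO, or 0.130 and 0.314 CPM against 2.02 and 2.79 CPM. With so few UMIs in Ctrl no p is given. Gm12610, which overlaps Cdkn2b from the opposite strand, had 3 and 3 UMIs in Ctrl, against 1 and 6 in TKO in the whole suprabasal class, far fewer than Cdkn2b.

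Lockd, a lncRNA that starts 2440 bases beyond Cdkn1b on the same strand, was lowered in TKO. It stood at 44.7 and 35.9 CPM in cycling basal cells of Ctrl and at 19.2 and 20.3 CPM in those of TKO, and fell by 1.01 (SE 0.144; adjusted p = 0.0083 by edgeR). Its change in G2/M minus that in S phase was -1.38 (edgeR adjusted p = 0.0195). In resting basal cells it was at 2.99 and 2.63 CPM in Ctrl and at 4.70 and 3.26 CPM in TKO. Reads that run past the end of Cdkn1b cannot be told apart from Lockd here. Of the other neighbours, Ap1m2 beside Cdkn2d rose in resting basal cells by 0.67 (edgeR adjusted p = 0.0422), while Kri1 beside Cdkn2d, Faf1 beside Cdkn2c and 2810454H06Rik beside Cdkn1b were not called in any of the 4 classes. The nearer neighbour of Cdkn2c, 9630013D21Rik, was under the expression filter in all 4 classes. It had 9 and 14 UMIs in cycling basal cells of Ctrl and 0 and 4 in those of TKO. Both TKO libraries were below both Ctrl libraries, as was the case for 30.4% of the genes tested there.

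Over the 16 class-by-library sums, the genes whose levels ran most like each member were named as a description of 12555 genes. Cdkn2c ran most like Neil3 (Pearson r = 0.945), Fam111a (0.926) and Mxd3 (0.920), with Cdkn2d 4th at 0.918. Cdkn2d ran most like Cdkn2c, then Fam111a (0.916) and Neil3 (0.907). Cdkn1b ran most like Cdk11b (0.956), Csgalnact2 (0.953) and Nsg1 (0.945). Cdkn2b ran most like Abhd5, Clint1 and Lamp1, each at 0.986. The sums share libraries and depth, and 4 classes set most of the likeness.

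The genes these inhibitors act with or are controlled by, a list of 55 that were all tested, had 2 raised and 4 lowered in cycling basal cells, or 10.9% of the list against 13.1% of all genes. The D cyclin Ccnd2 fell by 0.40 (edgeR adjusted p = 0.0468), and among E2F and DP factors E2f8 fell by 0.47 (0.0324) and Tfdp2 by 0.64 (0.0111). Cdkn1a, the p21 inhibitor of the CIP/KIP family and a target of p53, rose by 1.62 (0.0295), and by 1.13 without Ctrl replicate 1 and 2.32 without Ctrl replicate 2. Npm1, a nucleolar partner of ARF, rose by 0.61 (0.0092), and the ligand Tgfb1 fell by 0.91 (0.0477). Over 14 alternatives Npm1 was called in 14, Tfdp2 and Cdkn1a in 13, E2f8 in 9, Tgfb1 in 8 and Ccnd2 in 6. None of the 5 genes of the p27 ubiquitin ligase, of the 3 retinoblastoma family genes or of the 8 Polycomb genes was called in that class.

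In resting basal cells 7 of the 55 were raised and 2 lowered, 16.4% of the list against 9.22% of all genes. Cdkn1a rose by 2.89 on the log2 scale (edgeR adjusted p = 0.0003). Mdm2, which targets p53 for destruction, rose by 1.28 (0.0029), Rb1 by 0.70 (0.0187) and Foxo3, a factor known to drive Cdkn1b, by 0.61 (0.0246). The mitotic cyclins Ccnb2 and Ccnb1 rose by 1.47 (0.0025) and 1.17 (0.0316) and the cyclin Ccna2 by 1.21 (0.0302), but at 5000 UMIs a cell the change of Ccnb1 turned to -0.36. The whole G2/M list was higher in these cells of TKO, at 298 and 258 CPM against 179 and 175 CPM in Ctrl, so the cells called resting differed in mitotic transcripts between the genotypes. Cdk2 fell by 0.67 (0.0367) and Tgfb1 by 1.03 (0.0187). Over 14 alternatives Cdkn1a, Ccnb2 and Mdm2 were called in 14, Rb1 in 12, Tgfb1 and Foxo3 in 11, Ccna2 and Ccnb1 in 10 and Cdk2 in 7. Across them the log2 change of Cdkn1a ran from 1.73 to 3.185 and that of Mdm2 from 0.744 to 1.45.

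In hair follicle cells 9 were raised and 4 lowered, 23.6% of the list against 13.3% of all genes. Among cyclins and kinases Ccne1 rose by 0.82 (edgeR adjusted p = 0.0190), Cdk1 by 0.68 (0.0228) and Cdk6, a kinase that INK4 proteins bind, by 0.55 (0.0162), while Ccnb1 (0.54; 0.0609) and Cdk2 (-0.04; 0.857) were not called. Ccna2 (0.54; 0.0394), Ccnb2 (0.57; 0.0419), E2f7 (0.80; 0.0367), Npm1 (0.63; 0.0108), Cks1b (0.47; 0.0232) and Myc (0.81; 0.0232) also rose. The share of hair follicle cells called cycling moved with these genes. Within cycling hair follicle cells the libraries overlapped for Ccna2, Ccnb1 and Ccnb2, whose ratios of TKO to Ctrl were 1.04, 1.05 and 1.06. The other 7 raised genes were higher in both TKO libraries there too. Their ratios were 1.14 for Cks1b, 1.17 for Cdk1, 1.36 for Cdk6, 1.39 for E2f7, 1.45 for Ccne1, 1.53 for Npm1 and 1.82 for Myc. These 7 were picked as raised in the whole class, which holds these same cells, so this is no separate support. The part of the cycling share in these changes was not tested. Ccnd1 fell by 0.88 (0.0202), Tfdp2 by 0.42 (0.0386), the ligand Tgfb2 by 1.31 (0.0049) and Foxo1, another factor that drives Cdkn1b, by 1.24 (0.0123). Over 13 alternatives Tgfb2 and Foxo1 were called in 13, Npm1 in 12, Ccne1 and Ccnd1 in 10, Cdk1 in 9, Cdk6 and E2f7 in 8, Cks1b in 7 and Myc in 6. In suprabasal cells none of the 55 was called by edgeR, where 2455 of all genes were under an unadjusted p of 0.05 and DESeq2 called 679. Over the whole list the median log2 change was 0.05 in resting basal, 0.08 in cycling basal, 0.05 in suprabasal and 0.16 in hair follicle cells.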

How the data were processed

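The authors used 10x Genomics 3' v3 chemistry, and the deposited values are raw UMI counts, 1 filtered matrix a library. Per the file headers these came from Cell Ranger 7.1.0, where the study's methods name another version, and the build was GRCm39. The study's list of litters gives an earlier embryonic day than the labels. The 4 deposited matrices held 70749496 to 89655247 UMIs.

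Cells with at least 2000 genes and under 10% mitochondrial UMIs were kept (11221), and 457 doublets were removed with the Scrublet routine of scanpy 1.11.5, at 0.8% per 1000 barcodes. Libraries were aligned by a Harmony implementation written for this purpose and clustered by Leiden at resolution 1, without the members, the network genes and 1412 genes that differed between genotypes. Class and cycling thresholds were set after the cells were seen. UMIs were summed per class and library. TKO was compared with Ctrl by edgeR 4.0.16 (R 4.3.3; TMM, filterByExpr, glmQLFit), tested on simulated data; counts were scaled to CPM, per 1000000 UMIs of the sum, for display. Differences between classes were tested with an interaction term and the library as a block. Named genes were the 5 members, their nearest neighbours, the 3 genes most correlated with each and up to 10 called network genes a class by p. The members and lists were chosen with earlier results of these data known. Alternatives were DESeq2 1.42.0 and its size factors, no filter, a replicate block, each library left out, doublets kept, no alignment, resolution 0.5, at least 3000 genes, 5000 UMIs a cell, a stricter cycling threshold, and subsets added after seeing the data. Intervals and floors cover counting error only.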

Additional observations from a re-analysis of the deposited data

Results flagged for a closer look

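Cdkn2a had 16 UMIs in immune-like cells of TKO (283 and 424 cells) against 1 in those of Ctrl (84 and 127 cells), or a mean of 1.15 against 0.235 CPM. Cdkn2b had 22 UMIs in the TKO cells of the Merkel-like cluster, 20 of them in TKO replicate 2, against 0 in its Ctrl cells, but these TKO cells nearly lacked Merkel cell markers. Endothelial markers summed to 551 CPM in this cluster in TKO replicate 2 and to 1.60 to 4.05 CPM in the other libraries. The immune-like and the Merkel-like cells were outside the 4 classes compared, and neither difference was tested.

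The change from Ctrl to TKO differed between groups of cells by edgeR's test of that difference. For Cdkn2c the change in G2/M basal cells was -1.79 log2 units beyond that in S phase basal cells, and for Lockd -1.38.

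Relative to the change in resting basal cells, the change in cycling basal cells was -0.50 for Ap1m2, -0.94 for Ccna2, -1.04 for Ccnb1, -1.30 for Ccnb2, -0.62 for Ccnd1, -1.28 for Cdkn1a, -1.47 for Lockd, -0.84 for Mdm2 and -0.62 for Rb1, and 0.46 for Cdk2, 0.29 for Cdk6 and 0.29 for Npm1. In hair follicle cells it was -0.88 for Ccnb2, -0.85 for Ccnd1, -1.99 for Cdkn1a, -1.29 for Foxo1, -0.96 for Foxo3, -1.07 for Mdm2 and -0.71 for Rb1, and 0.35 for Ccnd2, 0.57 for Cdk6, 1.26 for Myc, 0.32 for Npm1 and 1.03 for Tgfb1. In suprabasal cells it was -2.20 for Cdkn1a. All are log2 units, chosen from the named genes because the test of the difference passed.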

How the results depend on the processing

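The log2 change of Cdkn2c in cycling basal cells kept its call under all 14 alternatives. The sign turned for Cdkn2d in resting basal cells without Ctrl replicate 2 (0.21) or TKO replicate 2 (0.19; range over libraries left out -0.44 to 0.21) and at 5000 UMIs a cell (0.22), for Ccnb1 there at 5000 UMIs (-0.36), and in suprabasal cells for Cdkn2d at 3000 genes a cell (0.068) and Cdkn1b without TKO replicate 2 (0.039; range -0.27 to 0.039). The cause was not tested. With 2 libraries a group, leaving one out leaves a lone library that is assumed to vary like the other group.

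Counts of called genes moved most. Leaving out 1 library gave 1381 to 2203 genes in resting basal, 849 to 2906 in cycling basal, 0 to 661 in suprabasal, 812 to 3066 in hair follicle and 1 to 2214 in all keratinocytes, and 1 to 2 members in cycling basal, 0 to 3 in hair follicle and 0 to 1 in all keratinocytes. The 0 and 1 genes arose without Ctrl replicate 2, the loss of 1 member in cycling basal cells likewise, and the 0 members without either Ctrl library. Tests of a difference from resting basal cells then gave 500 to 1796 (cycling basal), 0 to 533 (suprabasal) and 377 to 1119 (hair follicle).

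Without the expression filter 2609 resting basal, 3720 cycling basal and 1937 suprabasal genes were called, 4 members in hair follicle cells, and 2127, 660 and 1825 differences from resting basal cells in cycling basal, suprabasal and hair follicle cells. At 5000 UMIs a cell, which removes counts, the calls were 672 resting basal, 1096 cycling basal, 210 suprabasal, 809 hair follicle and 863 all-keratinocyte genes, 1 member in cycling basal and 0 in hair follicle cells, and 308, 95 and 344 differences. At 3000 genes a cell they were 689 resting basal and 311 suprabasal genes, 4 members in hair follicle cells, and 507 (cycling basal) and 129 (hair follicle) differences. DESeq2 called 679 suprabasal and 2524 all-keratinocyte genes. Keeping doublets gave 295 suprabasal and 1246 hair follicle genes, 81 suprabasal differences and 1 resting basal member, Cdkn2b. Without alignment there were 263 suprabasal genes, 112 suprabasal and 1293 hair follicle differences, 1 resting basal member, Cdkn2b, and 1 hair follicle member. Resolution 0.5 gave 1318 hair follicle genes. Here and below, a member count without the count of all genes of its class beside it is not read as a result.

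The replicate numbers only name the libraries: the correlation of same-numbered libraries' deviations was -0.113 to -0.357. With the replicate block 55 suprabasal and 937 all-keratinocyte genes were called, and 3 hair follicle members, Cdkn1b included. With the pairing crossed there were 962 suprabasal and 3565 all-keratinocyte genes, 2 members in all keratinocytes and 3 each in cycling basal and hair follicle cells. Cdkn2a in every class, Cdkn2b outside suprabasal cells and Cdkn2c in resting basal cells were under the expression filter of the main test, and low expression and depth were not told apart.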

Other observations

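The cluster named Merkel-like did not carry the same markers in the 2 groups. Its Merkel cell markers summed to 19896 and 23782 CPM in the Ctrl libraries and to 115 and 235 CPM in the TKO libraries. Beyond the Cdkn2b UMIs given above, the members' levels were therefore not compared between the groups there. In the Ctrl libraries Cdkn2d stood in this cluster at 75.0 and 99.8 CPM (47 and 36 UMIs from 34 and 24 cells) and Cdkn1b at 46.3 and 91.5 CPM.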
